A study of Mus musculus with 12 samples.

Results

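The genes described here were 37 markers of brain endothelial cells and of the blood-brain barrier in the mouse hippocampus. They were taken from a list of names, without a threshold on any measured value, and each was followed through 12 bulk RNA-seq libraries. The list was chosen with earlier results of these data known. The set held 10 endothelial receptors and signalling proteins, 10 junction and surface proteins, 3 transcription factors, 3 tight junction proteins, 9 transporters and carriers, and a pair of genes of other vessel states, *Plvap* of fenestrated vessels and *Vcam1*, an adhesion molecule that cytokines induce. All 37 were found among the 55421 genes listed and all 37 were among the 22592 genes with more than 20 counts over the 12 libraries, the genes that were tested.

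Endothelial cells line the blood vessels of the brain. They are joined by tight junctions and carry little vesicular transport, so that nutrients must cross by dedicated transporters and many foreign compounds are pumped back into the blood by efflux proteins. Wnt signals from neural cells through beta-catenin keep vessels in this barrier state, whereas the choroid plexus, which lies next to the hippocampus, has leaky, fenestrated vessels under a tight epithelium.

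The libraries came from a mouse model of fragile X syndrome, in which *Fmr1*, the gene for the RNA-binding protein FMRP, is knocked out (KO), and from wild-type (WT) mice. Mice were injected intraperitoneally at 2 months of age with vehicle (Veh) or with Nutlin-3 (Nut3), a small molecule that blocks the binding of the ubiquitin ligase MDM2 to p53, at 10 mg/kg in 5 injections on alternate days, and tissue was taken at 6 months of age, about 4 months after the last injection. The 4 groups were WT-Veh (labelled RH2, RH5 and RH15), WT-Nut3 (RH1, RH9 and RH14), KO-Veh (RH7, RH10 and RH16) and KO-Nut3 (RH6, RH8 and RH13), with 3 libraries in each. The labels do not say what these numbers stand for. Per the methods of the study, the KO was not limited to a cell type, and the mice used for cell counting also carried a *Nestin*-GFP transgene; the labels of the libraries name the *Fmr1* genotype only. Each library held whole hippocampal tissue from 1 animal. In such bulk RNA, fewer endothelial cells and less RNA per endothelial cell cannot be told apart. Between 17150820 and 20040482 reads per library were assigned to genes. A member had at least 24 counts in any library, and 30 of the 37 had at least 100 counts in every library.

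*Fmr1* itself was measured first as a check of the genotype labels. In CPM, which are counts scaled to one common total of reads on genes, its level was 74.0 to 79.5 in the 6 WT libraries and 28.5 to 37.3 CPM in the 6 KO libraries, without overlap. In KO-Veh against WT-Veh *Fmr1* differed by -1.18 on the log2 scale (SE 0.07, edgeR adjusted *P*-value = 1.76e-06). Marker genes of hippocampal neurons (10 genes, *Slc17a7* the most abundant) summed to between 2394 and 3638 CPM in all libraries, the lowest in KO-Nut3 RH6.

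Levels were first compared between members per length, as CPM per kilobase of exon sequence averaged over the 12 libraries. *Bsg*, the surface protein basigin that many cell types carry, stood at 208 CPM per kb, higher than 99.5% of the genes tested. It was followed by *Slc2a1*, the glucose transporter GLUT1, at 23.9 CPM per kb, *Cldn5*, the main claudin of the barrier, at 22.9, *Itm2a*, a membrane protein of brain endothelium, at 21.0, and *Slc7a5*, the large neutral amino acid transporter LAT1, at 20.8. The lowest were *Robo4*, an endothelial guidance receptor, at 1.36 CPM per kb, *Erg*, an ETS transcription factor of endothelium, at 1.32, *Nos3*, the endothelial nitric oxide synthase, at 1.12, *Icam2*, an adhesion molecule, at 0.937, and *Emcn*, the sialoglycoprotein endomucin, at 0.764. Only 3 of the 36 pairs of neighbours in this order differed by more than the sum of their SDs over the 12 libraries, namely *Bsg* above *Slc2a1*, *Ly6a* above *Slco1a4* and *Flt1* above *Esam*, so most of the order between neighbours lies within the spread of the libraries.

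**Figure D1:**
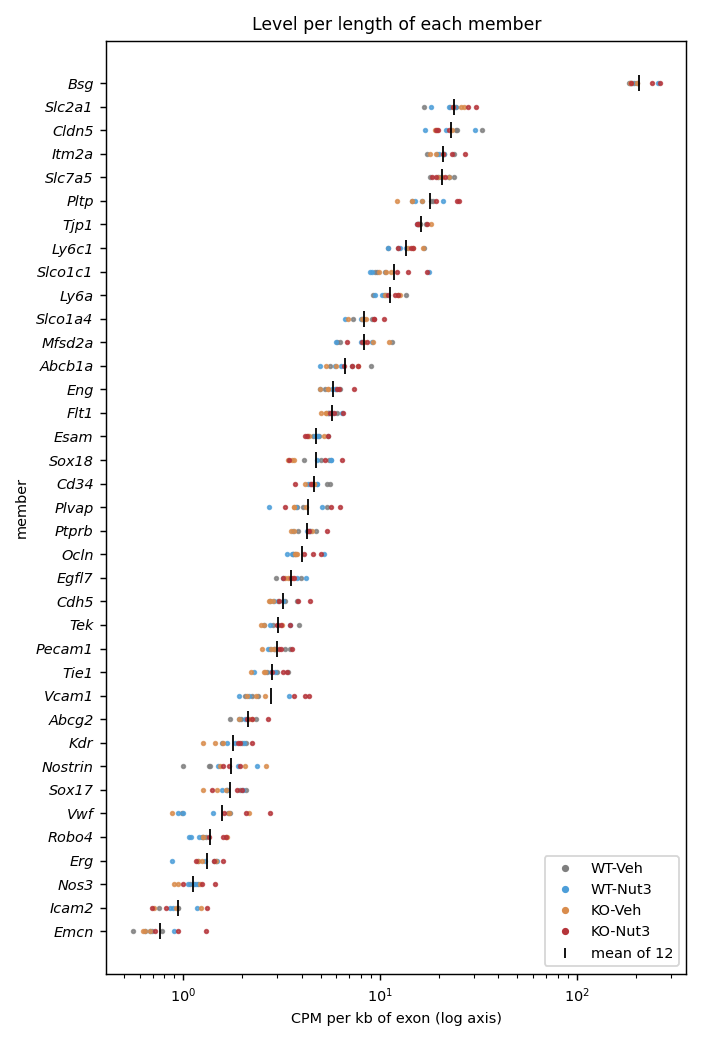
Level of each member in CPM per kb of exon sequence on a log axis, with 1 dot per library coloured by group and a tick at the mean of the 12 libraries. *Bsg* stands apart at 208 CPM per kb, and the other members run from 23.9 for *Slc2a1* down to 0.764 for *Emcn*.

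The question that bears most directly on the treatment is whether these genes differed between KO-Nut3 and KO-Veh mice 4 months after dosing. *Vcam1* rose 1.72-fold and was the only member to pass the threshold, whereas 13 of the 37 members, *Vcam1* included, were higher in every KO-Nut3 library than in every KO-Veh library and none was lower in every one. With edgeR's quasi-likelihood test, 1 of 37 members had an adjusted *P*-value under 0.05, beside 0.199% of all genes tested. The members were not chosen blind to these data, so the 2 shares are given side by side only. Without adjustment 16 members were higher and 0 lower at *P* under 0.05, beside 5.75% of all genes higher and 1.85% lower, and these 16 became 7 without KO-Veh RH10 and between 11 and 17 without any other single library. The log2 fold change was above 0 for 27 of 37 members, beside 50.8% of all genes, and its median was 0.25 for the members and 0.0034 for all genes. Groups that did not overlap, with KO-Nut3 higher, were found for 7.85% of all genes, and with KO-Nut3 lower for 5.44%.

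**Figure D2:**
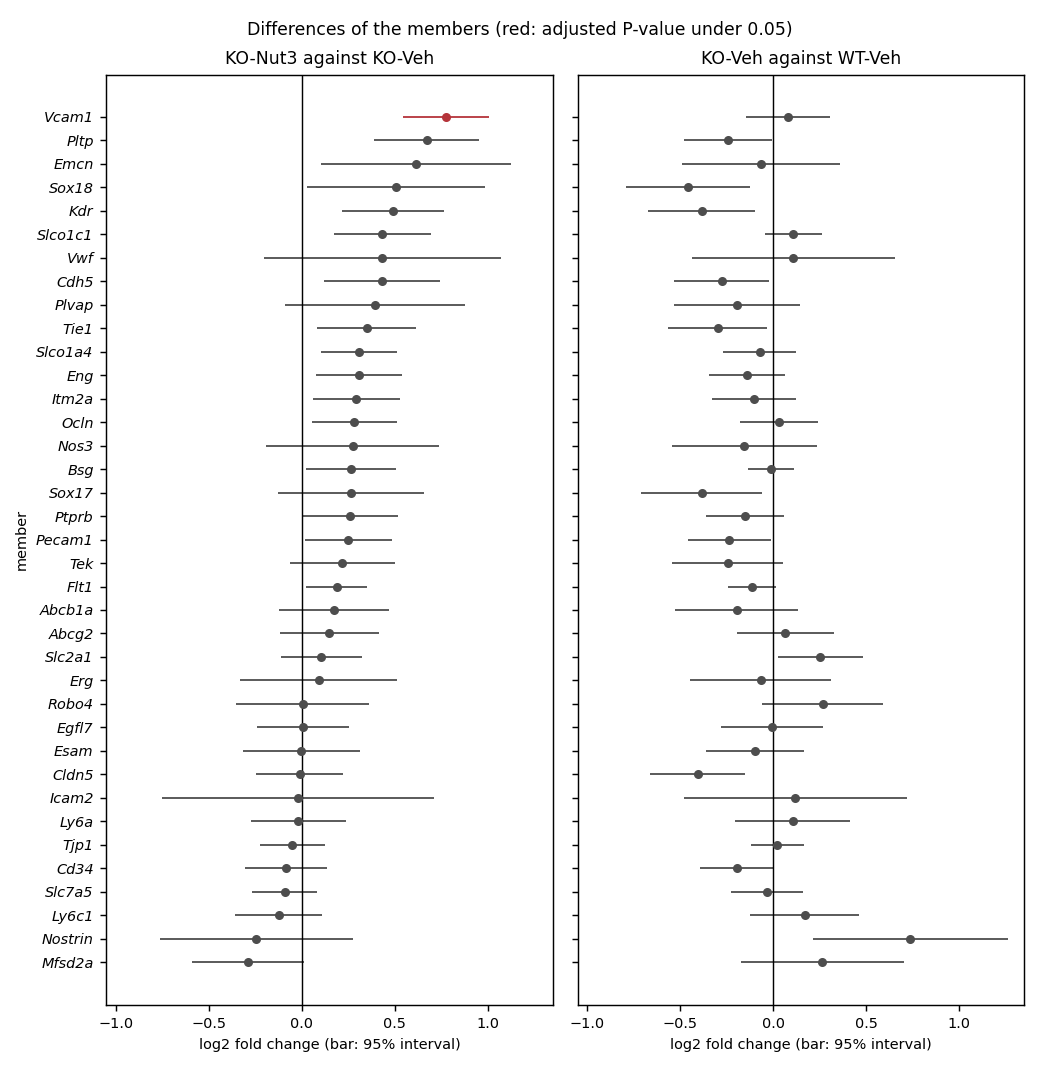
Log2 fold change of each member with its 95% interval from edgeR (3 libraries against 3), for KO-Nut3 against KO-Veh on the left and KO-Veh against WT-Veh on the right. In both panels the members are ordered by their log2 fold change in KO-Nut3 against KO-Veh. *Vcam1* on the left, at 0.78, is the only member with an adjusted *P*-value under 0.05 and is drawn in red, and the medians lie at 0.25 on the left and -0.07 on the right.

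*Vcam1* (ENSMUSG00000027962, chromosome 3, 116109949 to 116129688 in mm10, minus strand) encodes the adhesion molecule to which leukocytes bind through integrins. Its level was 32.5, 36.7 and 38.6 CPM in KO-Nut3 RH6, RH8 and RH13 and 23.1, 18.8 and 20.8 CPM in KO-Veh RH7, RH10 and RH16. Every KO-Nut3 library was thus above every KO-Veh library, and also above every WT library, of which WT-Nut3 RH9 was the highest at 30.6 CPM and the other 5 lay between 17.04 and 21.3. The means were 35.9 ± 3.10 CPM in KO-Nut3 and 20.9 ± 2.15 in KO-Veh (SD, n = 3 each), and the log2 fold change was 0.78 (SE 0.10, 95% interval 0.55 to 1.01, edgeR adjusted *P*-value = 0.0204). The call was made under 9 of the 15 other settings, of which 1 had a single KO-Nut3 library, and lost under 6. The edgeR adjusted *P*-value was 0.112, 0.212 and 0.14 without KO-Veh RH7, RH10 and RH16, and 0.0532 without KO-Nut3 RH13. It was 0.0589 with a term for the label numbers and 0.298 with all 12 libraries in one fit.

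**Figure D3:**
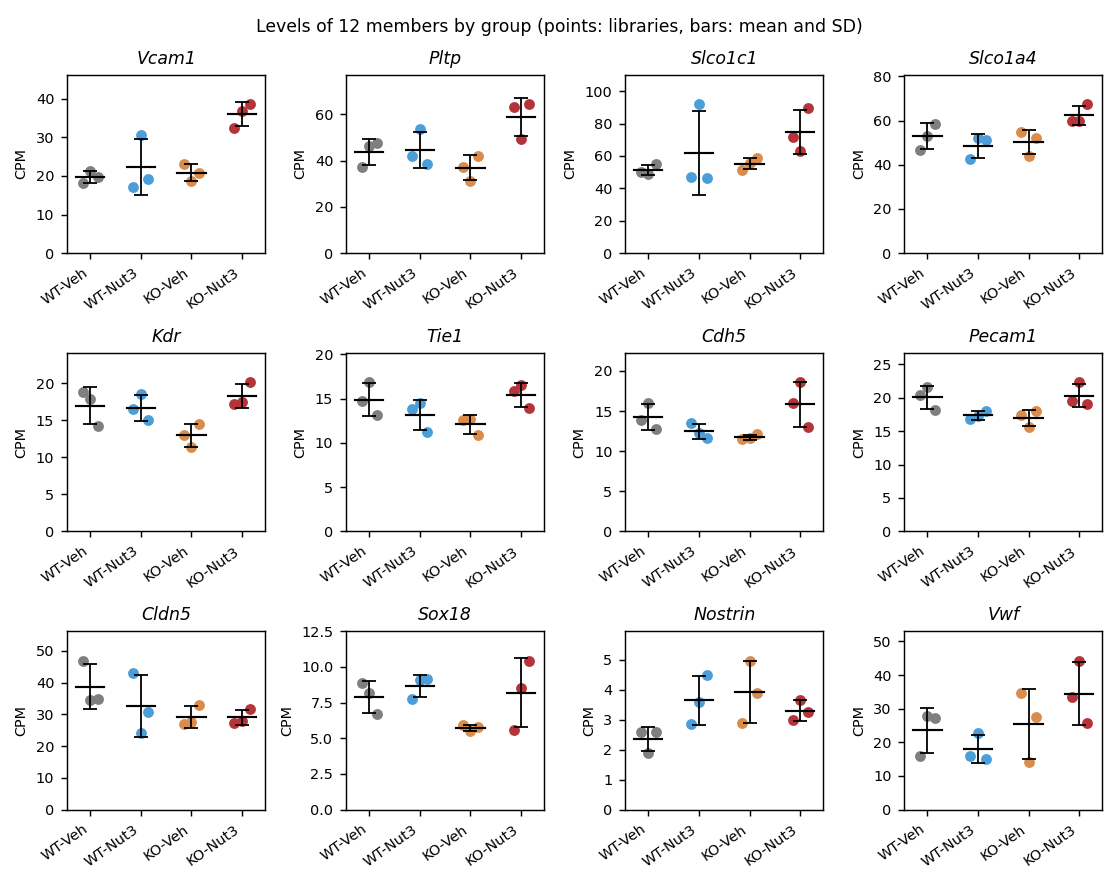
Level in CPM of 12 members in each library (dots) by group, with the mean and SD of the 3 libraries per group. *Vcam1* lies at 32.5 to 38.6 CPM in KO-Nut3 and at 18.8 to 23.1 in KO-Veh, and *Cldn5* at 26.9 to 33.0 in KO-Veh and 34.5 to 46.9 in WT-Veh.

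Of the receptors and signalling proteins, 9 of 10 had a log2 fold change above 0 in KO-Nut3 against KO-Veh, with a median of 0.24, and 5 had an unadjusted *P*-value under 0.05. Of all genes 50.8% were above 0, and 5.75% were higher and 1.85% lower at that threshold. These shares stand beside the counts of each role below. *Kdr*, the main VEGF receptor, was at 17.2, 17.5 and 20.1 CPM in KO-Nut3 and at 13.1, 11.3 and 14.5 in KO-Veh, a log2 fold change of 0.49 (SE 0.12, edgeR adjusted *P*-value = 0.223). *Tie1*, an orphan receptor of the angiopoietin system, was at 15.8, 16.6 and 13.9 CPM against 12.6, 12.7 and 10.9. These groups did not overlap, and the same was true of *Flt1*, the VEGF receptor that also exists as a soluble trap, at 75.1 to 87.8 against 67.7 to 72.1 CPM, and for *Eng*, the TGF-beta coreceptor endoglin, at 24.5 to 30.0 against 19.96 to 22.1. The groups overlapped for *Ptprb*, the phosphatase that restrains TEK (log2 fold change 0.26), *Nos3* (0.27) and *Tek*, the angiopoietin receptor (0.22). *Robo4* and *Egfl7*, a secreted endothelial factor, differed by 0.01 each, and *Nostrin*, which binds the nitric oxide synthase, by -0.24.

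*Flt1* and *Tie1* have a sequence in the reference promoter table (RefSeq, GRCm38.p6) and are shown as 2 examples, the receptors among the 13 members without overlap that hold a motif of the ETS family, to which *Erg* belongs. The motif searched was CNGGAAG, on either strand, within the 250 bases before each gene start, and no other motif was searched. The *Flt1* window is chr5:147726012-147726261 and the *Tie1* window chr4:118489850-118490099, both on the minus strand and written 5′ to 3′ along the gene, with motif matches in capitals.
Flt1: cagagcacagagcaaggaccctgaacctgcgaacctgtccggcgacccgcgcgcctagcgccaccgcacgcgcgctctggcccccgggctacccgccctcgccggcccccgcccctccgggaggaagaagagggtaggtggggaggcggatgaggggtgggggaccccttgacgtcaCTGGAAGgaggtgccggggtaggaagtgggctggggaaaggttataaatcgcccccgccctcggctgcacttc
Tie1: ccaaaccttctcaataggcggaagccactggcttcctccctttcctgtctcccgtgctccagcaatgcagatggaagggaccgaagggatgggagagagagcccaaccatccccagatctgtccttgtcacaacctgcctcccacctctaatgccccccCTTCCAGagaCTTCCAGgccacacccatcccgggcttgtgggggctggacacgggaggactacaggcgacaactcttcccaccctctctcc
The *Flt1* match starts 73 bases before the gene start, and the *Tie1* pair, read on the other strand, at 91 and 81 bases before it. Of the 23 members with an entry, 10 held the motif, or 43.5%, beside 29.2% of all 27025 genes in it. Among the 13 members without overlap 10 had an entry and 5 of these held the motif (*Emcn*, *Flt1*, *Itm2a*, *Slco1c1* and *Tie1*). A match describes letters in the window and is not evidence of a bound factor.

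Of the 10 junction and surface proteins 4 had an unadjusted *P*-value under 0.05 in KO-Nut3 against KO-Veh, all 4 of them higher, and the median log2 fold change was 0.13. *Cdh5*, the VE-cadherin of endothelial adherens junctions, was at 16.0, 18.6 and 13.0 CPM in KO-Nut3 and at 11.5, 11.6 and 12.1 in KO-Veh, a log2 fold change of 0.43 (SE 0.14, edgeR adjusted *P*-value = 0.427). *Pecam1*, the junction protein CD31, was at 19.6, 22.3 and 19.1 against 17.4, 15.7 and 18.0 CPM. In both genes KO-Nut3 RH8 was the highest of all 12 libraries. *Itm2a* was at 36.6 to 47.1 against 31.2 to 36.3 CPM, again without overlap and highest in RH8, and *Emcn* was at 5.10, 3.90 and 7.08 against 3.46, 3.38 and 3.65. *Vwf*, the clotting factor carrier von Willebrand factor, ran from 14.2 to 34.6 CPM in KO-Veh alone, and its log2 fold change of 0.43 had a 95% interval from -0.20 to 1.07. The other 5 surface genes, *Esam*, *Icam2*, *Cd34*, *Ly6c1* and *Ly6a*, differed by between -0.12 and 0.00, and their groups overlapped.

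The 3 transcription factors had log2 fold changes of 0.09 (*Erg*), 0.27 (*Sox17*) and 0.51 (*Sox18*), and the groups overlapped in each. *Sox18*, a SOXF factor of vessel development, was at 5.60, 8.54 and 10.4 CPM in KO-Nut3 and at 5.94, 5.53 and 5.75 in KO-Veh, so RH6 lay within the KO-Veh range and the other two above it.

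Among the tight junction genes, *Ocln*, the barrier protein occludin, was at 19.2, 17.4 and 21.1 CPM in KO-Nut3 and at 16.0, 15.7 and 15.6 in KO-Veh, a log2 fold change of 0.28 (SE 0.10, edgeR adjusted *P*-value = 0.512). *Cldn5* differed by -0.01 (95% interval -0.24 to 0.23) and *Tjp1*, the scaffold ZO-1, by -0.05 (-0.22 to 0.12). Of this role, then, the groups were apart in *Ocln* only.

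Of the 9 transporters and carriers 7 had a log2 fold change above 0, and 4 had an unadjusted *P*-value under 0.05, all higher. *Pltp*, a phospholipid transfer protein, was at 63.1, 49.4 and 64.3 CPM in KO-Nut3 and at 37.4, 31.2 and 42.0 in KO-Veh, a log2 fold change of 0.67 (SE 0.13, edgeR adjusted *P*-value = 0.0908). It missed the threshold and was the member next to *Vcam1* by *P*-value, and DESeq2 called it beside *Vcam1*, among 244 of the 22592 genes. *Slco1c1*, the thyroxine transporter OATP1C1, was at 71.9, 63.0 and 89.8 against 51.5, 55.6 and 58.8 CPM (0.43, SE 0.12, adjusted *P*-value = 0.278). *Slco1a4*, an organic anion transporter of brain vessels, was at 60.0, 59.8 and 67.4 against 54.6, 44.1 and 52.0 CPM (0.31, SE 0.09, adjusted *P*-value = 0.352). KO-Nut3 thus stood above KO-Veh without overlap in 3 of the 9, and these 3 carry lipid, hormone and organic anions. *Bsg* was at 440, 344 and 481 against 342, 339 and 367 CPM, with RH8 inside the KO-Veh range. The glucose transporter *Slc2a1* differed by 0.11, the efflux pumps *Abcb1a* and *Abcg2* by 0.17 and 0.15, *Slc7a5* by -0.09, and *Mfsd2a*, the carrier of omega-3 lysolipids, by -0.29 (95% interval -0.59 to 0.01), the lowest value of the 37.

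*Plvap*, which forms the diaphragms of fenestrae and is little made in barrier vessels, was at 11.2, 6.53 and 12.4 CPM in KO-Nut3 and at 8.36, 7.27 and 7.24 in KO-Veh. RH6 and RH13 were above all 3 KO-Veh libraries and RH8 was below them.

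The libraries also differed in choroid plexus RNA. The 15 choroid plexus epithelium markers summed to 5231 CPM in KO-Nut3 RH6, 7239 in KO-Nut3 RH13 and 6779 in WT-Nut3 RH9, to 709 in KO-Nut3 RH8, and to between 197 and 266 in the other 8 libraries. *Ttr*, the transthyretin of that epithelium and the most abundant gene of the list, stood at 3091, 4520 and 4215 CPM in those 3 libraries, at 314 in RH8 and at 3.15 to 18.2 in the others. All 15 markers had a log2 fold change above 0 in KO-Nut3 against KO-Veh, beside 50.8% of all genes, with a median of 4.71. Of the 15, 5 passed the threshold (13 with DESeq2, 0 with limma-voom), beside 0.199% of all genes with edgeR and 244 of the 22592 genes with DESeq2. No gene of the list was at 0 in every library. Of the members, 12 had their highest level in 1 of these 3 libraries and another 12 in RH8. The share of all genes highest in these libraries was not counted. *Slco1c1* was at 91.9 CPM in WT-Nut3 RH9 against 47.2 and 46.3 in the other WT-Nut3 libraries, and *Bsg* at 471 against 348 and 339. *Vcam1*, at 30.6 against 17.04 and 19.2 CPM, *Pltp*, at 53.5 against 42.0 and 38.7, and *Ocln*, at 22.0 against 15.1 and 14.3, were likewise highest there, so all 5 were high in the one WT library rich in *Ttr*. By contrast 2 members, *Cldn5* at 23.9 CPM and *Abcb1a* at 27.1, had their lowest level of the 12 libraries in WT-Nut3 RH9.

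**Figure D4:**
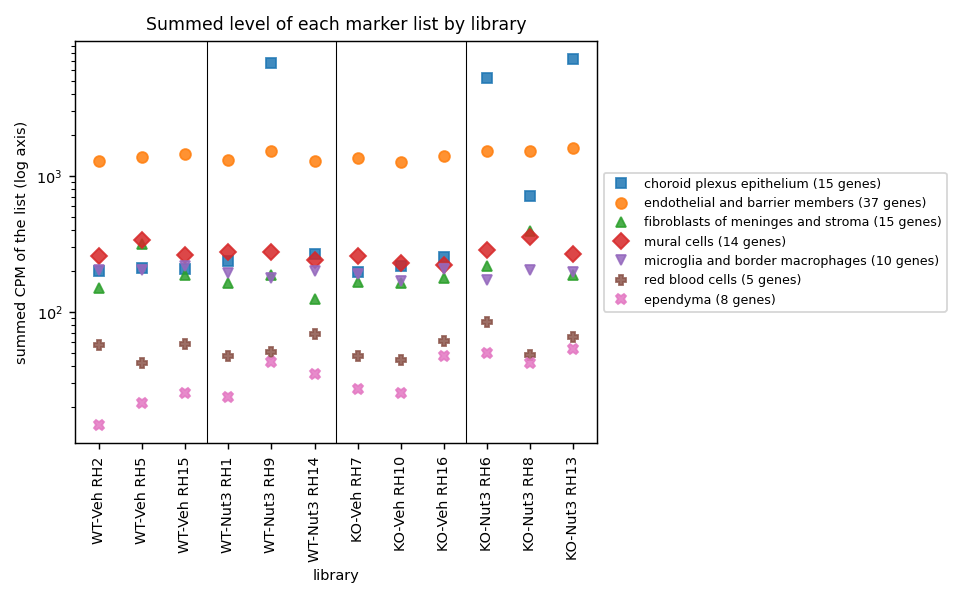
Summed level in CPM, on a log axis, of the members and of 6 marker lists of other cell types in each of the 12 libraries. The choroid plexus sum is 5231 to 7239 CPM in 3 libraries and 709 in KO-Nut3 RH8, while the sum of the members runs from 1264 to 1604 CPM.

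The comparison was repeated without the libraries above 1000 CPM of *Ttr*, an alternative chosen after seeing the data, which left RH8 as the lone KO-Nut3 library, assumed to vary like KO-Veh. In this setting 131 of the 22592 genes were called. *Vcam1* was then higher by 0.82 (adjusted *P*-value = 0.00986) and was again the only member called, but with 1 library in the KO-Nut3 arm this call describes RH8 and carries no weight for the group. The log2 fold change of *Pltp* went from 0.67 to 0.43 (adjusted 0.517), of *Slco1c1* from 0.43 to 0.19, of *Bsg* from 0.27 to -0.02, of *Emcn* from 0.61 to 0.16, of *Ocln* from 0.28 to 0.14 and of *Plvap* from 0.39 to -0.22. By contrast it was 0.67 for *Cdh5* (adjusted 0.0961), 0.49 for *Itm2a* (0.0988), 0.44 for *Kdr*, 0.46 for *Tie1*, 0.39 for *Pecam1* and 0.32 for *Flt1*. The value was above 0 for 31 of the 37 members, beside 48.1% of all genes, with a median of 0.27.

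RH8 differed from the other KO-Nut3 libraries in other markers. The 15 fibroblast markers (*Pdgfra* the most abundant) summed to 393 CPM in RH8, 220 in RH6, 186 in RH13 and 163 to 178 in KO-Veh, and WT-Veh RH5 had 315. The 14 mural cell markers (*Rgs5* the most abundant) summed to 357 CPM in RH8, 286 in RH6, 265 in RH13 and 220 to 258 in KO-Veh, and WT-Veh RH5 had 338. In KO-Nut3 against KO-Veh 14 of 15 fibroblast markers and 12 of 14 mural markers had a log2 fold change above 0, with medians of 1.37 and 0.50, beside 50.8% of all genes above 0. edgeR called 1 and 0 of them (7 and 2 with DESeq2), beside 0.199% of all genes with edgeR and 244 of the 22592 genes with DESeq2. With RH8 as the only KO-Nut3 library, calls on these 2 lists describe RH8 and carry no weight for the group. RH8 was above the member's own mean in 32 of the 37 members, RH13 in 27, RH6 in 21 and KO-Veh RH10 in 6. Without RH8 the median log2 fold change of the members was 0.15, and 25 of 37 were above 0. The part of fibroblast and mural RNA in the members' values was not tested.

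**Figure D5:**
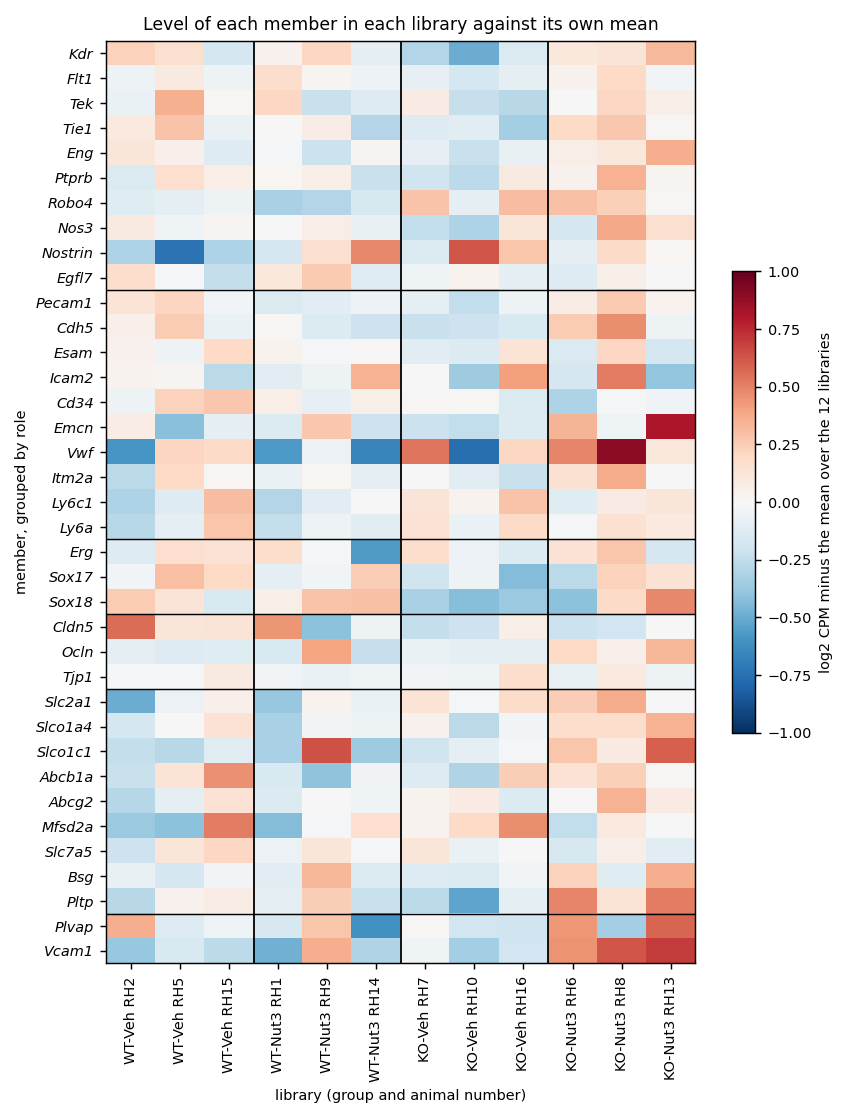
Each member's log2 CPM in each library minus its mean over the 12 libraries, with members ordered by role and libraries by group. KO-Nut3 RH8 is above the mean in 32 of 37 members and KO-Veh RH10 in 6.

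The next question was whether the genotype alone moved these genes, in KO-Veh against WT-Veh, which uses the same KO-Veh libraries as the comparison above. None of the 37 members was called by edgeR, DESeq2 or limma-voom (0.0177% of all genes were by edgeR). By *P*-value the leading members were *Cldn5*, *Sox18* and *Kdr*, with lower means in KO-Veh, and *Nostrin*, with a higher one. Without adjustment, 2 members were higher and 9 lower at *P* under 0.05, beside 3.08% of all genes higher and 4.12% lower, and these 11 became 5 without WT-Veh RH5 or without KO-Veh RH7 and 6 without KO-Veh RH10. The log2 fold change was above 0 for 13 of 37 members, beside 48.9% of all genes, with a median of -0.07, which was -0.02 without WT-Veh RH15 and -0.04 without KO-Veh RH10. The groups did not overlap for 1 member with KO-Veh higher, *Nostrin*, and for 7 with KO-Veh lower, *Flt1*, *Tie1*, *Pecam1*, *Cdh5*, *Sox17*, *Sox18* and *Cldn5*, beside 5.9% and 6.46% of all genes.

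*Cldn5* was at 26.9, 27.5 and 33.0 CPM in KO-Veh and at 46.9, 34.5 and 34.8 in WT-Veh. The log2 fold change was -0.41 (SE 0.12, edgeR adjusted *P*-value = 0.608), and -0.25 without WT-Veh RH2, the highest of the 6 libraries. The KO-Nut3 libraries, at 27.4, 27.8 and 31.8 CPM, lay in the KO-Veh range, and WT-Nut3 spread from 23.9 to 43.1. *Sox18* was at 5.94, 5.53 and 5.75 CPM in KO-Veh and at 8.90, 8.14 and 6.70 in WT-Veh (-0.46, SE 0.15, adjusted *P*-value = 0.61), and *Sox17*, its SOXF relative, at 5.98 to 7.84 against 7.94 to 9.98 (-0.38). *Nostrin*, a gene of low level, was at 2.89, 4.96 and 3.87 CPM against 2.57, 1.89 and 2.58 (0.73, SE 0.24, adjusted *P*-value = 0.61).

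The endothelial junction and receptor genes without overlap differed less. *Cdh5* was at 11.5 to 12.1 CPM in KO-Veh and 12.8 to 16.0 in WT-Veh (-0.28), *Pecam1* at 15.7 to 18.0 against 18.2 to 21.6 (-0.24), *Tie1* at 10.9 to 12.7 against 13.1 to 16.8 (-0.30) and *Flt1* at 67.7 to 72.1 against 73.7 to 81.3 (-0.11). For *Kdr* the value was -0.39, with overlap. By role, the median was -0.15 for receptors, -0.08 for junction and surface proteins, -0.38 for the transcription factors, 0.02 for tight junction genes and -0.01 for transporters. *Slc2a1* was higher by 0.25 and *Pltp* lower, at -0.24, and these were the only transporters with an unadjusted *P*-value under 0.05. *Cd34*, a sialomucin of endothelium and progenitors, was at -0.20, and *Vcam1* at 0.08 (95% interval -0.15 to 0.30). The choroid plexus sums of these 6 libraries lay between 197 and 255 CPM.

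Markers of cells that accompany vessels were measured in the same libraries. Of the 15 fibroblast markers 14 had a log2 fold change below 0, with a median of -0.75, and 7 were lower and 0 higher at the unadjusted threshold. Of the 14 mural cell markers 13 were below 0, with a median of -0.34, and 6 were lower and 0 higher. Of all genes 4.12% were lower and 3.08% higher at that threshold, and 48.9% had a log2 fold change above 0. edgeR called none of either list, and the groups overlapped for 11 markers of each. Among all genes 5.9% had groups without overlap with KO-Veh higher and 6.46% with KO-Veh lower. The sums of both lists were highest in WT-Veh RH5 among these 6 libraries, and those of the other WT-Veh libraries were 149 and 189 CPM for fibroblasts, on either side of the KO-Veh range, and 260 and 263 CPM for mural cells, above it. Of the 7 ependymal markers tested all 7 were above 0, with a median of 0.82. The part of these cell types in the members' values was not tested.

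In WT mice, Nutlin-3 against vehicle gave 0 called members by edgeR, DESeq2 or limma-voom, beside 0% of all genes by edgeR (717 genes lay under 0.05 without adjustment). Without adjustment 1 member was higher and 1 lower at *P* under 0.05, beside 1.84% and 1.34% of all genes, and these 2 became 4 without WT-Veh RH2, 0 without WT-Veh RH5 and 1 without WT-Nut3 RH14. These were *Nostrin*, higher by 0.63, and *Abcb1a*, which encodes the efflux pump P-glycoprotein, at -0.34 (-0.16 without WT-Veh RH15). Next by *P*-value was *Pecam1* at -0.21, and the edgeR adjusted *P*-value of all 3 was 0.998. The log2 fold change was above 0 for 13 of 37 members, beside 50.1% of all genes, and the median was -0.06. Without WT-Nut3 RH9 the value was above 0 for 5 members, with a median of -0.08. The median was -0.09 without WT-Veh RH2, -0.03 without WT-Nut3 RH1 and -0.02 without WT-Veh RH15 or WT-Nut3 RH14. *Vcam1* was at 17.04, 30.6 and 19.2 CPM in WT-Nut3 and at 18.2, 21.3 and 19.8 in WT-Veh, so a single library, RH9, was high. Of the marker lists, choroid plexus had 15 of 15 genes above 0 (median 4.57, 14 past the unadjusted threshold), ependyma 7 of 7 (median 0.73, 4 past it) and fibroblasts 1 of 15 (median -0.62, 4 past it), and edgeR called none of these genes. Their part in the members' values was not tested.

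Whether Nutlin-3 moved the members differently in the 2 genotypes was tested by the interaction over all 12 libraries, in which edgeR, DESeq2 and limma-voom called 0 members (0% of all genes with edgeR, 942 genes without adjustment). The largest terms by *P*-value were *Pecam1* at 0.47 (SE 0.14), *Cdh5* at 0.63 (SE 0.19) and *Pltp* at 0.64 (SE 0.20), with edgeR adjusted *P*-values of 0.994. The term was above 0 for 31 of 37 members, beside 51.3% of all genes, with a median of 0.26, and at the unadjusted threshold 9 were above and 1 below 0, beside 2.9% and 1.27% of all genes. It shares its KO-Veh libraries with the comparisons above. The same term was above 0 for 14 of 15 fibroblast markers, with a median of 2.10 and 13 past the unadjusted threshold, and for 13 of 14 mural cell markers, with a median of 0.67 and 5 past it, and none was called. The part of these cell types in the members' terms was not tested.

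Against WT-Nut3, KO-Nut3 gave 0 called members with edgeR or limma-voom and 1, *Vwf*, with DESeq2 (0.00443% of all genes with edgeR, and 7 of the 22592 genes with DESeq2). At the unadjusted threshold 8 were higher and 0 lower, beside 2.8% and 2.08% of all genes, and the median was 0.18, or 0.11 without WT-Nut3 RH14. The groups did not overlap for 8 members with KO-Nut3 higher and for 0 with it lower, beside 5.3% and 5.35% of all genes. *Vwf* was at 33.4, 44.3 and 25.8 CPM in KO-Nut3 and at 16.0, 22.9 and 15.1 in WT-Nut3, without overlap (0.93, SE 0.21, edgeR adjusted *P*-value = 0.928). *Slco1a4* differed by 0.36 and *Vcam1* by 0.68, with the same adjusted *P*-value. Of the fibroblast markers 15 of 15 were above 0, with a median of 1.39 and 13 past the unadjusted threshold, and the groups overlapped for 11. Of the mural cell markers 11 of 14 were above 0, with a median of 0.20, and edgeR called none of either list. Both groups hold libraries rich in choroid plexus RNA. Without those, 1 KO-Nut3 library (RH8) stood against 2 WT-Nut3 libraries, which alone gave the spread, and 5 members (*Ptprb*, *Slc2a1*, *Slco1c1*, *Vcam1* and *Vwf*) and 316 of the 22592 genes were called. With so few libraries these calls describe RH8 and carry no weight for the group. Against WT-Veh, KO-Nut3 gave 0 called members with edgeR or limma-voom and 2, *Slco1c1* and *Vcam1*, with DESeq2 (0.00443% of all genes with edgeR, and 218 of the 22592 genes with DESeq2). At the unadjusted threshold 8 were higher and 2 lower, beside 5.61% and 3.55% of all genes, and the median was 0.11. The groups did not overlap for 7 members with KO-Nut3 higher and for 1 with it lower, beside 7.92% and 7.09% of all genes. *Vcam1* differed by 0.86 (SE 0.10, edgeR adjusted *P*-value = 0.0652), the member nearest the threshold there. *Slco1c1* differed by 0.55 (SE 0.12, adjusted *P*-value = 0.185) and *Pltp* by 0.43 (SE 0.12, adjusted 0.302), without overlap in either, and *Cldn5* was lower without overlap, at 27.4 to 31.8 against 34.5 to 46.9 CPM. With RH8 as the only KO-Nut3 library the log2 fold change was 0.30 for *Slco1c1* (adjusted 0.843), 0.18 for *Pltp* (adjusted 0.892) and 0.89 for *Vcam1* (adjusted 0.0752). The median of the members was 0.02 without RH8. Choroid plexus markers were above 0 in 15 of 15, with a median of 5.46, and ependymal markers in 7 of 7, with a median of 1.26, each past the unadjusted threshold and none called by edgeR.

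With both treatments pooled, 6 KO against 6 WT libraries, no member was called by edgeR, DESeq2 or limma-voom (0.00443% of all genes were by edgeR), and 4 were higher and 2 lower at the unadjusted threshold, beside 3.8% and 4.36% of all genes. *Robo4* was at 8.10 ± 0.94 CPM in KO and 6.34 ± 0.49 in WT (mean ± SD, n = 6 per genotype), which is a log2 difference of 0.36 (SE 0.10, edgeR adjusted *P*-value = 0.417). *Slc2a1* differed by 0.30 (adjusted 0.436) and *Vcam1* by 0.39 (adjusted 0.477). Ependymal markers were above 0 in 7 of 7 (median 0.63, 5 past the unadjusted threshold) and choroid plexus markers in 15 of 15 (median 0.76, 0 past it). Mural cell markers were above 0 in 4 of 14 (median -0.08). edgeR called none of these, and their part in the members' values was not tested. With both genotypes pooled, Nutlin-3 against vehicle also gave 0 called members with these tools (0% of all genes with edgeR, 1647 genes without adjustment), and 8 were higher and 0 lower at the unadjusted threshold, beside 5.02% and 2.28% of all genes. These 8 became 2 when KO-Veh RH7 was left out and 3 without WT-Nut3 RH9, KO-Veh RH10 or KO-Nut3 RH13. The number was 5 without WT-Veh RH15, KO-Veh RH16 or KO-Nut3 RH6. Without the *Ttr*-rich libraries 2 members lay under 0.05 without adjustment, *Flt1* higher by 0.17 and *Plvap* lower, at -0.35. *Vcam1* differed by 0.48 (SE 0.14, adjusted *P*-value = 0.332), *Pltp* by 0.36 (adjusted 0.507) and *Slco1c1* by 0.35 (adjusted 0.604), or by 0.19 without WT-Nut3 RH9. Without the *Ttr*-rich libraries the value was 0.28 for *Vcam1*, 0.10 for *Pltp* and -0.0018 for *Slco1c1*. With all 12 libraries the choroid plexus markers were above 0 in 15 of 15 in this comparison, with a median of 4.84. All 15 were past the unadjusted threshold, none was called by edgeR, and their part in the members' values was not tested.

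Further genes of the same vessels were taken from lists of 20 genes of Wnt and beta-catenin signalling, 20 of VEGF, angiopoietin and Notch signalling, 20 further transporters and junction proteins, and 10 of leukocyte adhesion. In KO-Nut3 against KO-Veh edgeR and limma-voom called none of them, and DESeq2, which called 244 of the 22592 genes there, called *Fzd4*, *Slc22a8* and *Cavin1*. In the Wnt list 4 were higher and 0 lower without adjustment, beside 5.75% and 1.85% of all genes. Of this list 15 of 20 had a log2 fold change above 0 (median 0.19), beside 50.8% of all genes. *Fzd4*, the receptor of the barrier signal norrin, was at 32.8, 25.4 and 29.3 CPM in KO-Nut3 and at 19.9, 17.6 and 17.03 in KO-Veh, a log2 fold change of 0.68 (SE 0.11, edgeR adjusted *P*-value = 0.0563), and at 32.7 CPM in the choroid plexus rich WT-Nut3 RH9 against 13.8 and 16.1 in the other WT-Nut3 libraries. Its coreceptor *Lrp5* was at 17.9, 17.3 and 18.1 CPM against 12.7, 12.9 and 15.1 (0.39, adjusted *P*-value = 0.297).

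In the VEGF, angiopoietin and Notch list only *Angpt2*, a ligand that loosens TEK signalling, had an unadjusted *P*-value under 0.05, at 2.27, 2.52 and 1.87 CPM in KO-Nut3 and 0.929, 1.30 and 0.627 in KO-Veh (1.21, SE 0.32, edgeR adjusted *P*-value = 0.251). *Acvrl1*, the receptor ALK1 with which endoglin works, followed at 0.32 (adjusted 0.672), and 10 of 20 genes were above 0, beside 50.8% of all genes. In the list of further transporters and junction proteins 6 of 20 were higher and 0 lower at the unadjusted threshold, with a median of 0.17. The shares of all genes were 5.75% and 1.85%. *Slc22a8*, the organic anion transporter OAT3, was at 23.6, 31.3 and 19.1 CPM against 14.9, 12.5 and 15.5 (0.78, adjusted *P*-value = 0.153), and *Cavin1*, a coat protein of caveolae, at 29.1, 35.1 and 25.2 against 19.2, 14.5 and 21.0 (0.70, adjusted 0.159). In both genes the groups were apart and RH8 was the highest of all 12 libraries.

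Of the 10 leukocyte adhesion genes 8 were tested, since the selectins *Sele* and *Selp* had too few counts. *Icam1*, which like *Vcam1* binds leukocyte integrins, was at 3.33, 8.59 and 1.87 CPM in KO-Nut3 and at 2.63, 1.52 and 2.56 in KO-Veh, with overlap (1.03, edgeR adjusted *P*-value = 0.685, and 0.20 without RH8). *Madcam1*, another integrin ligand, was at 0.721, 0.057 and 0.439 CPM in KO-Nut3 and at 0.113 CPM or 0 in KO-Veh, which had 0 to 2 counts per library (adjusted *P*-value = 0.513). At the unadjusted threshold *Madcam1*, higher, was the only gene of the list, beside 5.75% of all genes higher and 1.85% lower. The median log2 fold change of the list was 0.04. In KO-Veh against WT-Veh none of the genes of the 4 lists was called by edgeR, DESeq2 or limma-voom. At the unadjusted threshold 3 of the Wnt list and 5 of the further transporters and junction proteins were lower and 0 higher. Of the VEGF list 3 were higher and 1 lower, and 1 leukocyte adhesion gene was higher and 1 lower. Of all genes 3.08% were higher and 4.12% lower.

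Markers of the remaining cell types were compared in KO-Nut3 against KO-Veh, where edgeR called 0.199% of all genes. The median log2 fold change was 0.14 for 10 microglia and border macrophage genes (*Csf1r* the most abundant), of which *Cd74* was called, 0.07 for 8 astrocyte genes (*Slc1a3* the most abundant) and -0.15 for the 10 neuronal genes. It was 0.42 for 5 red blood cell genes, all 5 above 0, and 0.65 for the 7 ependymal genes tested, all 7 above 0, and edgeR called none of these. The red blood cell genes, led by *Hbb-bs* at 42.3, 23.1 and 33.7 CPM in KO-Nut3 and 25.9, 22.9 and 32.0 in KO-Veh, overlapped. The ependymal *Foxj1* was at 26.8, 18.6 and 24.8 CPM against 12.5, 11.4 and 20.7. Their part in the members' values was not tested.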

How the data were processed

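Per the labels and the methods of the study, poly(A) RNA of dissected hippocampus was sequenced (the labels give single reads, the methods paired-end reads) and the authors aligned it to mm10 with STAR, whose version is not given in the sources used here. The authors deposited, per library, whole-number read counts per gene, in 3 columns. The unstranded counts were used, since both strand columns held about equal counts. Rows naming no gene (21.2 to 22.6% of reads) were left out. Gene names and lengths were taken from GENCODE M21.

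Genes with more than 20 counts over the 12 libraries were tested with edgeR 4.0.16 (quasi-likelihood, TMM factors, two-sided) in R 4.3.3, on the 6 libraries of each of 5 pairs of groups and on all 12 for the 3 other comparisons, with Benjamini-Hochberg adjustment over all 22592 genes and a threshold of 0.05. SE and 95% intervals came from the F statistic. Levels are CPM with TMM factors. *P*-values measure the spread between the animals of a group. The scripts were tested on simulated data. Alternatives used DESeq2 1.42.0 and limma-voom 3.58.1, other filters, dispersions and scaling, a term for animal numbers up to 8 against 9 and later, and leaving out libraries.

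Members and lists were chosen with earlier results of these data known. Full statistics were given for members past the threshold, or else for the 3 with the smallest *P*-value in a comparison. Members without overlap in KO-Nut3 against KO-Veh or KO-Veh against WT-Veh were named, as were the 2 genes of each pathway list with the smallest *P*-value in KO-Nut3 against KO-Veh, the most abundant gene of each cell type list and the 5 highest and 5 lowest members per length. Apart from the sequences of the reference promoter table, no genome sequence was used, and no protein sequence was used.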

Additional observations from a re-analysis of the deposited data

Results flagged for a closer look

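*Pecam1* met a rule for a closer look because its 2 Nutlin-3 differences pointed in opposite directions in every library. In KO mice the 3 KO-Nut3 libraries, at 19.1 to 22.3 CPM, were all above the 3 KO-Veh libraries, at 15.7 to 18.0 CPM, whereas in WT mice the 3 WT-Nut3 libraries, at 16.8 to 18.0 CPM, were all below the 3 WT-Veh libraries, at 18.2 to 21.6 CPM. The interaction of genotype and Nutlin-3 was 0.47 on the log2 scale (SE 0.14), with an edgeR adjusted *P*-value of 0.994, so the difference between the genotypes did not pass the threshold. In KO mice groups without overlap, with KO-Nut3 higher, were found for 7.85% of all genes. In WT mice *Robo4* and *Tjp1* were also lower without overlap and *Nostrin* was higher. The share of all genes apart in both genotypes, in opposite directions, was not counted, so whether *Pecam1* stands out was not tested. With 3 libraries per group no test for single outlying libraries was made.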

How the results depend on the processing

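In KO-Nut3 against KO-Veh the number of members called, 1, became 2 with DESeq2 (*Pltp* and *Vcam1*) and 4 when every gene with at least 1 count was tested (with *Kdr* and *Slco1c1*). It became 0 with a term for the label numbers, 0 with all 12 libraries in one fit, and 0 to 2 without 1 library. *Vcam1* lost the call in 6 of 15 settings, with adjusted *P*-values of 0.0589 (number term), 0.298 (12 libraries), 0.112, 0.212 and 0.14 without KO-Veh RH7, RH10 and RH16, and 0.0532 without KO-Nut3 RH13, at log2 fold changes between 0.71 and 0.86. Without KO-Nut3 RH8 the median of the members was 0.15 against KO-Veh and 0.02 against WT-Veh. All genes called, 45, became 244 (DESeq2), 19 (limma-voom), 544 (every gene), 20 (number term), 0 (12 libraries), 131 (*Ttr*-rich libraries left out, chosen after seeing the data) and 6 to 266 without 1 library.

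Testing every gene with at least 1 count gave 2 members in KO-Veh against WT-Veh (*Cldn5*, *Slc2a1*), 2 in WT-Nut3 against WT-Veh (*Abcb1a*, *Slco1c1*), 1 in KO-Nut3 against WT-Nut3 (*Vwf*), 3 in KO-Nut3 against WT-Veh (*Pltp*, *Slco1c1*, *Vcam1*), 5 in the interaction (*Abcb1a*, *Pltp*, *Slco1a4*, *Vcam1*, *Vwf*) and 4 in each pooled comparison, in place of 0. DESeq2 gave 1 in KO-Nut3 against WT-Nut3 and 2 in KO-Nut3 against WT-Veh, a robust dispersion 1 in the latter (*Vcam1*) and leaving out 1 library 0 to 2 there. Leaving out the *Ttr*-rich libraries gave 5 in KO-Nut3 against WT-Nut3 and turned *Slco1c1* in Nutlin-3 against vehicle over both genotypes from 0.35 to -0.0018 (adjusted *P*-value = 1). The cause of these moves was not tested.

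All genes called in KO-Veh against WT-Veh, 4, became 27 (DESeq2), 272 (every gene), 21 (number term) and 2 to 11 without 1 library. In KO-Nut3 against WT-Nut3 and KO-Nut3 against WT-Veh, 1 each became 7 and 218 (DESeq2), 38 and 416 (every gene) and 316 and 14 (*Ttr*-rich libraries left out), and 0 to 7 and 1 to 197 without 1 library, the 197 without KO-Nut3 RH8. WT-Nut3 against WT-Veh went from 0 to 249 (every gene) and 11 (number term), the interaction from 0 to 291, KO against WT from 1 to 46 (DESeq2) and 239 (every gene), and Nutlin-3 against vehicle from 0 to 79 and 539. Without 1 library these 4 had 0 to 1, 0 to 1, 1 to 10 (10 without KO-Nut3 RH6) and 0 to 19 (19 without WT-Nut3 RH14). No paired analysis was made, since the groups share no label number. The alternative on the strand columns was not run, since both held equal shares. *Icam2*, a member of few counts, had a 95% interval of -0.75 to 0.71 in KO-Nut3 against KO-Veh, which holds both counting error and the spread between animals.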
